A study of Caenorhabditis elegans with 104 samples.

Results

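Single wild-type (N2) Caenorhabditis elegans worms aged 16 days were compared with worms aged 14 days, gene by gene, for the heat shock transcripts that differed between these ages. The comparison used 34 worms, chosen by the age given in their labels: all 17 of day 16 and all 17 of day 14, beside 70 worms measured at 5 other ages (13 at day 4, 17 each at days 8 and 12, 14 at day 20 and 9 at day 24). Worms of both ages came from the same timed egg lay of 2 hours, were kept at 20 °C on OP50 bacteria with no drug or genetic change named in the labels, and each spent the filming before the freeze on a plate lacking bacteria. After 2 rounds of linear amplification, the Cy5-labelled RNA of 1 animal met on its array the Cy3-labelled RNA of a common young reference, pooled from 15 animals of day 4; worms whose amplified RNA failed quality control had been dropped by the submitters. A value is read here as log2 of worm over pool, with 0 for the level of the pool; the base and the direction are not stated for these tables, and a reversed sign would turn every direction below. The labels describe 1 cohort picked from at each age, so an effect of age and one of its harvest cannot be told apart, and fewer cells of a type and less RNA per cell cannot be told apart in whole worms.

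The heat shock response is the rapid transcription of chaperone genes by heat shock factor, HSF-1 in this worm, when proteins unfold. Its inducible products include the small HSP-16 proteins, which hold unfolded proteins and keep them from aggregating, and the cytosolic HSP-70, which refolds them with ATP and J-domain co-chaperones. The constitutive chaperones HSP-1 and HSP-90 assist folding in unstressed cells, and HSB-1 is known to bind HSF-1 and hold it back. Reporters of hsp-16.2 are known in this worm for differing widely between genetically identical animals.

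Of the 18889 genes tested, 3 were higher at day 16 than at day 14 and 0 were lower, or 0.0159% and 0% of the genes (limma, with p adjusted by Benjamini-Hochberg and a threshold of 0.05). All 3 were inducible heat shock genes: hsp-16.41 (Y46H3A.2), hsp-16.2 (Y46H3A.3) and hsp-70 (C12C8.1). They were also the 3 largest rises of all genes. At an unadjusted p under 0.05 there were 788 genes (4.17%), of which 371 were higher and 417 lower. A difference of at least 1, or a doubling on this scale, was found for 93 genes (0.492%), 43 upward and 50 downward. The largest difference after the heat shock genes was 1.57, for C14A4.9, and the most negative was -1.45, for the acetylcholine receptor family gene acr-9; neither passed (limma adjusted p = 1 for both). The smallest adjusted p after the heat shock genes was 0.573, for F47G6.3, which like C14A4.9 and acr-9 was named after its values were seen.

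**Figure D1:**
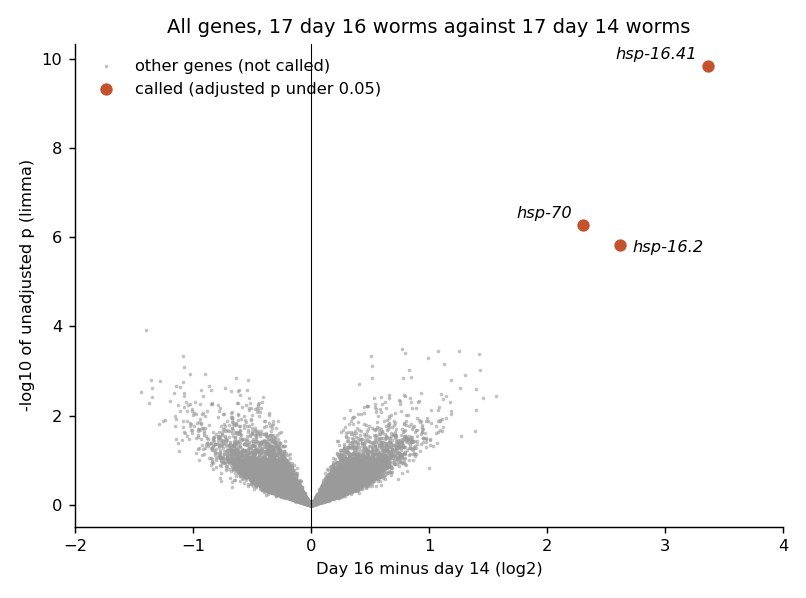
Difference between day 16 and day 14 (x axis, log2) against the unadjusted limma p (y axis, -log10) for the 18889 genes, with 17 worms at each age. The 3 called genes, hsp-16.41, hsp-16.2 and hsp-70, lie apart at differences of 3.37, 2.61 and 2.31, and all other genes lie between -1.45 and 1.57.

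Before these results are given by worm, 5 worms must be named whose arrays stood apart. The mean correlation of their arrays with those of the other worms of both ages lay between 0.229 and 0.291, against 0.351 to 0.492 for the remaining 29 worms. They were replicates 15 and 16 of day 14 and replicates 7, 12 and 13 of day 16, numbered in accession order. Without them, a setting chosen after seeing the data, 1 gene was called, hsp-16.41, at 3.29 ± 0.52 (SE, n = 14 worms of day 16 and 15 of day 14, limma adjusted p = 0.000117). The differences then were 2.39 ± 0.55 for hsp-16.2 (p = 3.83e-05, limma adjusted p = 0.181) and 2.10 ± 0.47 for hsp-70 (p = 2.18e-05, limma adjusted p = 0.137), upward but no longer past the threshold. The part of these 5 arrays in the result was not tested beyond this. Probes without a value numbered 34 to 250 per array at day 14 (median 117) and 9 to 464 at day 16 (median 98).

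The small heat shock protein gene hsp-16.41 changed most. Its lowest, median and highest values were -0.55, 2.67 and 4.61 in the 17 worms of day 14 and 4.31, 5.83 and 8.14 in the 17 worms of day 16. The groups barely overlapped: 15 of 17 worms of day 16 lay above the highest worm of day 14, and 15 of 17 worms of day 14 lay below the lowest of day 16. The mean rose from 2.48 ± 1.35 to 5.84 ± 0.92 (SD, n = 17 each), a difference of 3.37 ± 0.47 (SE, limma adjusted p = 2.71e-06), or 10.3-fold with a 95% interval of 5.39 to 19.7. The worms of day 14 reached down to the level of the pool, and those of day 16 all stood well above it.

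Its neighbour on chromosome V in the RefSeq table, hsp-16.2, encodes a second small heat shock protein. Its lowest, median and highest values were 0.06, 3.19 and 4.54 at day 14 and 3.51, 5.38 and 7.99 at day 16. Here 14 of 17 worms of day 16 lay above every worm of day 14, and 10 of 17 worms of day 14 lay below every worm of day 16. The mean rose from 2.96 ± 1.44 to 5.57 ± 1.16 (SD, n = 17 each), a difference of 2.61 ± 0.51 (SE, limma adjusted p = 0.00942), or 6.12-fold with a 95% interval of 3.03 to 12.4. The near-identical genes hsp-16.1, hsp-16.11, hsp-16.48 and hsp-16.49 were not analysed here, and a probe of 1 member may also read others, so the values of single hsp-16 genes are uncertain.

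The inducible HSP70 gene hsp-70 gave lowest, median and highest values of 0.14, 1.59 and 3.61 at day 14 and 1.95, 4.06 and 5.72 at day 16. Its groups overlapped more: 11 of 17 worms of day 16 lay above the highest worm of day 14, and 10 of 17 worms of day 14 below the lowest of day 16. The mean rose from 1.65 ± 1.07 to 3.96 ± 1.11 (SD, n = 17 each), a difference of 2.31 ± 0.43 (SE, limma adjusted p = 0.00506), or 4.95-fold with a 95% interval of 2.74 to 8.94.

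**Figure D2:**
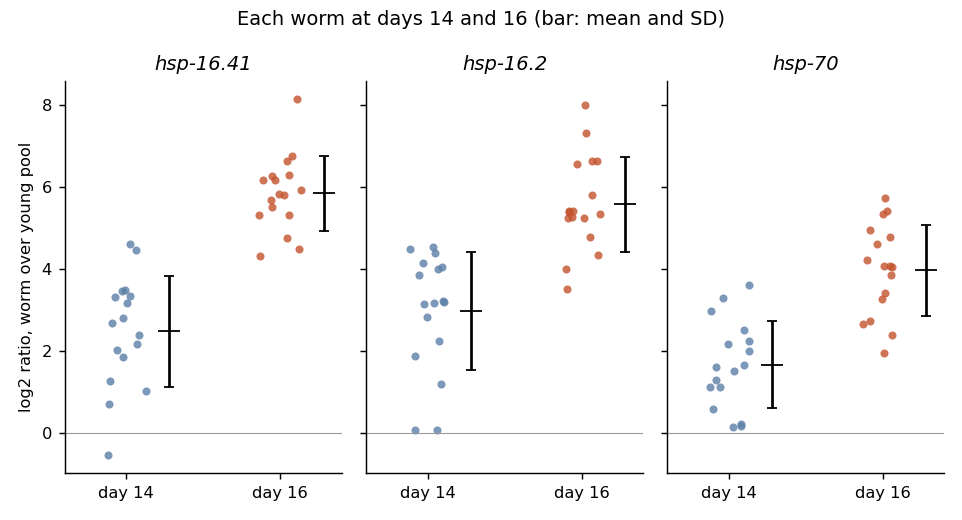
Log2 ratio of worm over young pool (y axis) for the 17 worms of day 14 and the 17 of day 16, with 1 panel per called gene; bars give the mean and SD over worms. The day 16 worms lie between 4.31 and 8.14 for hsp-16.41, 3.51 and 7.99 for hsp-16.2 and 1.95 and 5.72 for hsp-70, and in each panel the lowest of them lies above the median worm of day 14. The values 4.31, 7.99 and 5.72 come from arrays of low correlation with the other worms.

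The difference was seen across the worms of day 16. All 17 lay above the day 14 median for all 3 genes, which is a description, since the genes were called on these worms. Over all genes, 12 (0.0635%) had every day 16 worm above the day 14 median. At least 11 day 16 worms above the highest worm of day 14 were found for 3 genes (0.0159%), hsp-16.41, hsp-16.2 and hsp-70. The cutoff of 11 is the count of hsp-70 itself, and 6 other genes had 10 such worms. This count, too, is a description of the worms on which the genes were called. Counted by worm, 9 worms of day 16 exceeded every worm of day 14 in all 3 genes, 6 in 2 genes, 1 in 1 gene and 1 in none. Replicates 7 and 13, whose arrays stood apart, were among the 9. The worm that exceeded in none, replicate 17, had 4.49 for hsp-16.41, 3.51 for hsp-16.2 and 1.95 for hsp-70. Of the worms of day 14, 5 lay below every worm of day 16 in all 3 genes, 10 in 2 genes and 2 in none. The 2 that lay inside the day 16 range in every gene were replicate 4 (4.61, 3.98 and 2.24 for hsp-16.41, hsp-16.2 and hsp-70) and replicate 9 (4.47, 4.38 and 2.97). Leaving out any 1 of the 34 worms kept the count at 3 genes higher and 0 lower. The adjusted p of hsp-16.2 then reached 0.0411, without replicate 5 of day 14, that of hsp-70 0.0187, without replicate 12 of day 16, and that of hsp-16.41 1.59e-05 (limma).

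The worms of 1 age still differed among themselves in these transcripts, so the 3 genes were correlated across worms within each age. In all 20 relations were computed, 18 between hsp-70 and 9 other heat shock genes and 2, chosen after seeing the data, between hsp-16.2 and hsp-16.41. Each has a two-sided permutation p with 100000 resamples, adjusted over the 20. The permutation p-values given without the arrays of low correlation, a setting chosen after seeing the data, were not adjusted. A probe of 1 hsp-16 gene may also read the other, so r between these 2 genes may include shared signal, which was not tested. Worms with more hsp-16.2 also had more hsp-16.41 at day 14 (Pearson r = 0.755, permutation p = 0.00035, adjusted p = 0.007, Spearman rho = 0.64, permutation p = 0.0072, adjusted p = 0.048, n = 17). At day 16 the same pair gave r = 0.62 (permutation p = 0.00778, adjusted p = 0.0519) and rho = 0.689 (permutation p = 0.00303, adjusted p = 0.0352, n = 17). Without the 5 arrays of low correlation, r of this pair was 0.876 at day 14 (n = 15, permutation p = 3e-05) and 0.95 at day 16 (n = 14, permutation p = 1e-05, the smallest it can give). Among those 5, replicate 12 of day 16 had 6.62 for hsp-16.2 but 4.31, the lowest of its age, for hsp-16.41. Without the 2 worms farthest from the median of hsp-16.2, r was 0.525 at day 14 (permutation p = 0.0436) and 0.508 at day 16 (permutation p = 0.0535), adjusted p = 0.356 for both; r stayed positive, and the day 14 value was no longer past the threshold.

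Between hsp-70 and hsp-16.2 the worms of day 16 gave r = 0.688 (permutation p = 0.002, adjusted p = 0.02) and rho = 0.679 (permutation p = 0.00352, adjusted p = 0.0352, n = 17), and those of day 14 gave r = 0.179 (permutation p = 0.493, adjusted p = 0.822) and rho = 0.0686 (permutation p = 0.793, adjusted p = 0.81, n = 17). Whether the ages differ in this relation was not tested. Without the 2 day 16 worms farthest from the median of hsp-70, r was 0.509 (permutation p = 0.0517, adjusted p = 0.356), positive but no longer past the threshold, and without the arrays of low correlation it was 0.623 (n = 14, permutation p = 0.0173). Between hsp-70 and hsp-16.41, r was 0.396 at day 16 (permutation p = 0.115, adjusted p = 0.383, rho = 0.363, permutation p = 0.152) and 0.233 at day 14 (permutation p = 0.366, adjusted p = 0.733, rho = 0.194, permutation p = 0.452, n = 17 each). Without the arrays of low correlation the value at day 16 was 0.69 (n = 14, permutation p = 0.00476), and without the 2 worms farthest from the median of hsp-70 it was 0.128. None of the other 14 relations of hsp-70 passed, among them those with hsp-17, hsp-1, hsp-90, hsp-110, dnj-13 and the ER chaperone gene hsp-4, and their r lay between -0.435 and 0.456.

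**Figure D3:**
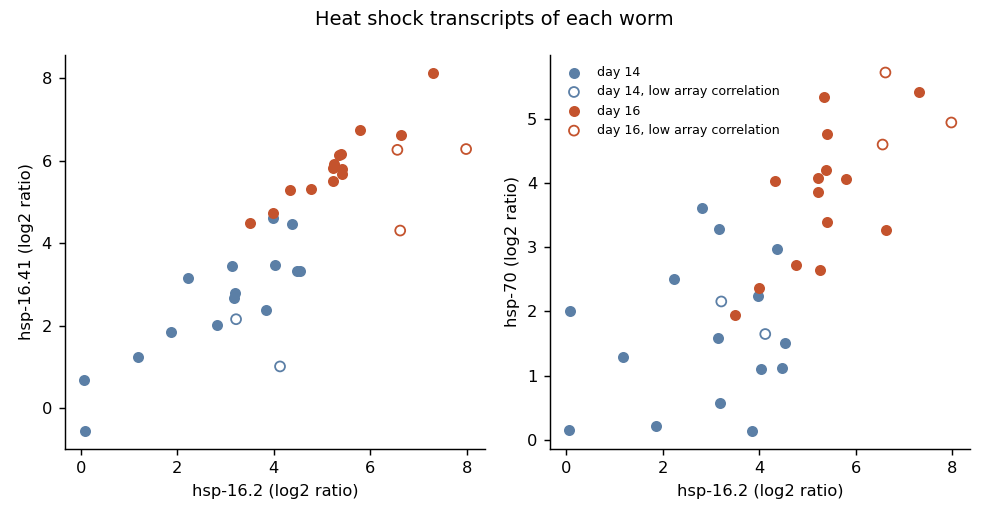
Log2 ratios of single worms, with hsp-16.2 on the x axis of both panels, hsp-16.41 on the left y axis and hsp-70 on the right y axis, for 17 worms of day 14 and 17 of day 16. Over all 17 worms of an age, r between hsp-16.41 and hsp-16.2 was 0.755 at day 14 and 0.62 at day 16, and without the 5 open points, the arrays of low correlation, it was 0.876 and 0.95. For hsp-70 and hsp-16.2, r over all 17 worms was 0.179 at day 14 and 0.688 at day 16.

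By Pearson's r over the 34 worms of both ages, the 5 genes most like hsp-70 among 16494 genes with a value in every worm were hsp-16.41 (0.72), hsp-16.2 (0.72), rike-1 (0.66) and the chemoreceptor genes srh-30 (0.63) and srh-113 (0.62). These r include the difference between the ages and are descriptions. Within the ages r was 0.58 and 0.28 for rike-1, 0.75 and 0.54 for srh-30 and 0.72 and 0.79 for srh-113, at days 14 and 16 in that order. The differences between the ages were 0.75 for rike-1, 0.33 for srh-30 and 0.16 for srh-113, and none passed (limma adjusted p = 1 for each).

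The other small heat shock protein genes measured were 8 of 10 listed, and 0 of them passed in either direction, beside 0.0159% of all genes. Their median difference was 0.12, against -0.01 over all genes. The largest, that of hsp-17, was 1.14 ± 0.38 (SE, p = 0.00372, limma adjusted p = 1), with lowest, median and highest values of -2.48, -0.21 and 1.32 at day 14 and -1.03, 0.89 and 3.55 at day 16. For hsp-17 the groups overlapped widely, and 7 of 17 worms of day 16 lay above the highest of day 14. That count was 6 for hsp-12.3 and at most 3 for the rest of these genes. Its share over all genes was not computed. The remaining differences were 0.59 for hsp-12.2, 0.56 for hsp-12.3, 0.13 for hsp-12.6, 0.10 for hsp-43, 0.06 for hsp-25, -0.13 for hsp-12.1 and -0.35 for the embryonic chaperone gene sip-1. The estimate for hsp-16.2, 2.61, lay outside the 95% interval of each of these 8 genes. The interval of hsp-17 ended at 1.90 and that of hsp-12.3 at 1.31. That of hsp-16.2 itself began at 1.60 and so overlapped the interval of hsp-17. Whether hsp-17 rose less than hsp-16.2 was not tested. Of 4 genes listed as inducible HSP70, 2 were measured, hsp-70 and F11F1.1. The genes F44E5.4 and F44E5.5 were not measured here. F11F1.1, an HSP70 family gene, differed by -0.08 (limma adjusted p = 1).

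The constitutive chaperone genes all had small positive differences and none passed. They were 0.45 ± 0.21 for hsp-110 (SE, p = 0.0354), 0.34 ± 0.20 for hsp-90 (p = 0.0909), 0.27 ± 0.12 for the HSP70-like gene stc-1 (p = 0.0213) and 0.25 ± 0.15 for hsp-1 (p = 0.0938), each with a limma adjusted p of 1. Their 95% intervals ended at 0.88, 0.74, 0.51 and 0.54, or below a doubling. Above the day 14 median lay 16, 11, 14 and 13 of 17 worms of day 16 for hsp-110, hsp-90, stc-1 and hsp-1. In the same order, 3, 1, 3 and 3 worms lay above the highest worm of day 14. The shares of all genes with such counts were not computed. Of 5 regulators of heat shock factor, 0 passed, beside 0.0159% of all genes. The transcript of hsf-1 itself differed by -0.34 ± 0.19 (SE, p = 0.0752), that of its repressor hsb-1 by 0.25 (p = 0.107), and those of ddl-1, ddl-2 and hsf-2 by -0.10, -0.11 and -0.08, all with a limma adjusted p of 1. For hsf-1, 3 of 17 worms of day 16 lay above the day 14 median. The same count was 13 for hsb-1 and 6 each for ddl-1, ddl-2 and hsf-2, again without a share over all genes.

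**Figure D4:**
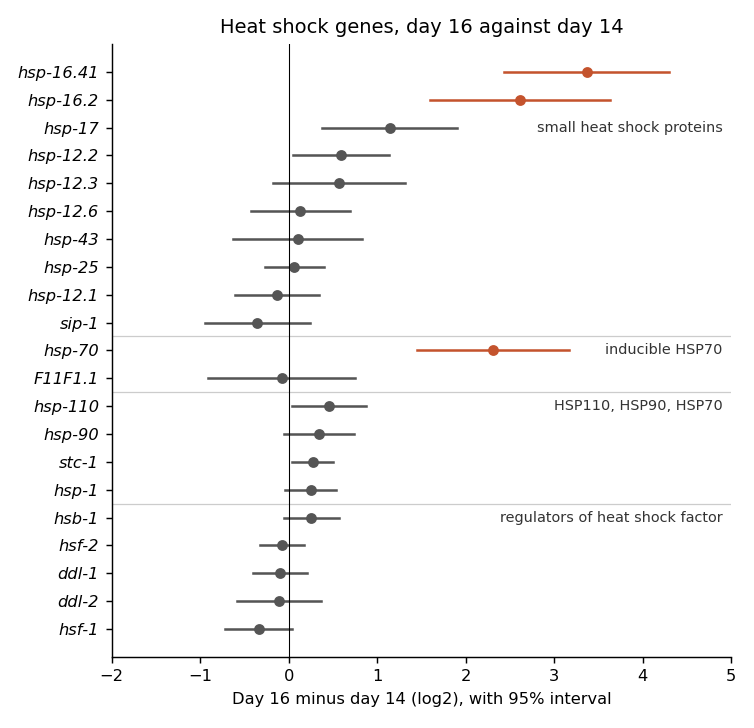
Difference between day 16 and day 14 (x axis, log2) with its 95% interval from limma for 21 genes, grouped as small heat shock proteins, inducible HSP70, constitutive HSP110, HSP90 and HSP70, and regulators of heat shock factor; 17 worms at each age. The intervals of hsp-16.41, hsp-16.2 and hsp-70 begin at 2.43, 1.60 and 1.45, and those of the constitutive genes end at 0.88 or lower.

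Other branches of protein homeostasis held no called gene. With 3 of 18889 genes (0.0159%) called in all, a list without a called gene says little about its members. Of 33 HSP40 and other co-chaperone genes, 0 passed, with a median difference of 0.04. The genes of these lists named next were picked after their values were seen: the J-domain gene dnj-24 differed by -1.08 (p = 0.00315) and the BAG-domain gene unc-23 by 0.54 (p = 0.0286), each with a limma adjusted p of 1. Of 23 genes of the ER chaperones and unfolded protein response 0 passed, with a median of 0.14, and the closest was the choline kinase gene ckb-2 at 0.99 ± 0.28 (SE, p = 0.000501, limma adjusted p = 0.788). The ER chaperone gene hsp-4 differed by 0.25 and the ER oxidase gene ero-1 by -0.26 (limma adjusted p = 1 for both). Of 18 mitochondrial genes 0 passed (median -0.04), and the ubiquitin-like gene ubl-5 had 0.55. Passing genes numbered 0 of 13 chaperonin and prefoldin genes (median -0.0038) and 0 of 32 proteasome genes (median -0.02).

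Other stress and upkeep lists also held no called gene, beside 0.0159% of all genes, so this too says little about their members. The medians were 0.08 for 35 genes of the intracellular pathogen response, 0.09 for 32 antioxidant genes, 0.07 for 12 metal response genes, -0.13 for 14 genes of hypoxia and osmotic stress and -0.01 for 30 genes of fasting and lipid mobilisation. They were 0.13 for 18 DAF-16 targets, 0.11 for 45 innate immunity genes, 0.03 for 41 genes of autophagy and lysosome and 0.05 for 27 histone genes. The members with the smallest p of these 9 lists, none of which passed, were the cullin gene cul-6 (0.91), the glutathione reductase gene gsr-1 (0.27), cdr-1 (-0.48), osm-8 (0.62), the acyl-CoA dehydrogenase gene acdh-2 (0.41), dod-3 (1.39), the saposin-like gene spp-8 (0.94), the autophagy gene bec-1 (0.55) and his-31 (0.55). Of 60 cytosolic ribosomal protein genes 0 passed, the median was -0.17, and 50 had a difference below 0, against 9637 of 18889 genes in all; rps-4 had -0.55 (p = 0.0345, limma adjusted p = 1).

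Cell type markers did not pass either, beside 0.0159% of all genes, which says little about the cell types. The medians were -0.05 for 20 intestinal genes, 0.10 for 20 body wall muscle genes, 0.07 for 12 pharyngeal genes, -0.01 for 20 neuronal genes and -0.05 for 18 genes of hypodermis and cuticle. They were -0.10 for 23 oocyte and eggshell genes, -0.14 for 23 genes of germline proliferation and meiosis and 0.06 for 16 sperm genes. The members with the smallest p of the 8 lists, in the same order, were the GATA factor gene elt-2 (-0.64), the twitchin gene unc-22 (-0.77), the troponin C gene tnc-2 (0.41), the serotonin synthesis gene tph-1 (-0.72), the collagen gene col-19 (-0.64, p = 0.00145), the maternal zinc finger gene pos-1 (-0.32), the germ granule gene pgl-1 (-0.45) and the sperm channel gene spe-41 (0.49), each with a limma adjusted p of 1. Differences above 0 were found for 8 of 20 intestinal, 15 of 20 muscle, 6 of 12 pharyngeal and 10 of 20 neuronal genes. They were found for 7 of 18 hypodermal, 5 of 23 oocyte, 5 of 23 germline and 9 of 16 sperm genes, beside 9252 of 18889 genes in all. These counts are descriptions, and no list was tested.

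Seen over all 7 ages, the step from day 14 to day 16 brought the 3 transcripts up from levels near their lowest. From day 12 to day 14 they differed by less than their error, at 0.05 ± 0.47 for hsp-16.41, 0.28 ± 0.51 for hsp-16.2 and -0.03 ± 0.43 for hsp-70 (SE), and 0 of all genes (0%) were called between those ages by limma, with 1156 (6.12%) at an unadjusted p under 0.05. Against day 12, the worms of day 16 stood higher by 3.42, 2.90 and 2.28 in the same order (limma adjusted p = 1.54e-06, 0.00129 and 0.00444), and 6 genes (0.0318%) were called in all, counted in either direction. From day 16 to day 20 the differences were -1.33 ± 0.50, -1.68 ± 0.54 and -0.83 ± 0.45 (SE), none of which passed (limma adjusted p = 0.362, 0.233 and 0.677), while 48 genes (0.254%) were called. These comparisons share worms with that of day 16 and day 14 and are set beside it as values only.

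The levels at day 16 stood below those of day 8 for each gene, though past the threshold only for hsp-16.2 and hsp-70. For hsp-16.41 the means in falling order were 6.49 ± 1.66 at day 8 (SD, n = 17), 6.31 ± 0.92 at day 4 (n = 13), 5.84 ± 0.92 at day 16 (n = 17), 5.07 ± 1.32 at day 24 (n = 9), 4.51 ± 1.37 at day 20 (n = 14), 2.48 ± 1.35 at day 14 and 2.42 ± 1.83 at day 12 (n = 17 each). No neighbours in this order differed past the threshold (limma adjusted p = 0.0503 for day 20 against day 14 and at least 0.584 for the others). Day 16 differed from day 4 by -0.47 with a 95% interval of -1.47 to 0.54. The single worms of day 4 thus stood far above the pool of day 4 animals, at lowest 4.80 for hsp-16.41 and 4.98 for hsp-16.2, so a value of 0 is not the level of a single young worm; the reason was not tested. For hsp-16.2 the means were 7.37 ± 1.48 at day 8, 6.74 ± 1.30 at day 4, 5.57 ± 1.16 at day 16, 4.53 ± 0.79 at day 24, 3.90 ± 1.51 at day 20, 2.96 ± 1.44 at day 14 and 2.68 ± 2.21 at day 12 (SD). No neighbours in this order differed past the threshold, and day 16 differed from day 8 by -1.80 (limma adjusted p = 0.00843, with 15.3% of genes called). For hsp-70 the means were 6.01 ± 1.59 at day 8, 3.96 ± 1.11 at day 16, 3.14 ± 1.24 at day 20, 2.78 ± 1.50 at day 24, 1.82 ± 1.22 at day 4, 1.68 ± 1.21 at day 12 and 1.65 ± 1.07 at day 14 (SD). Among its neighbours only days 8 and 16 differed past the threshold, with day 16 minus day 8 at -2.04 ± 0.43 (SE, limma adjusted p = 0.000304).

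**Figure D5:**
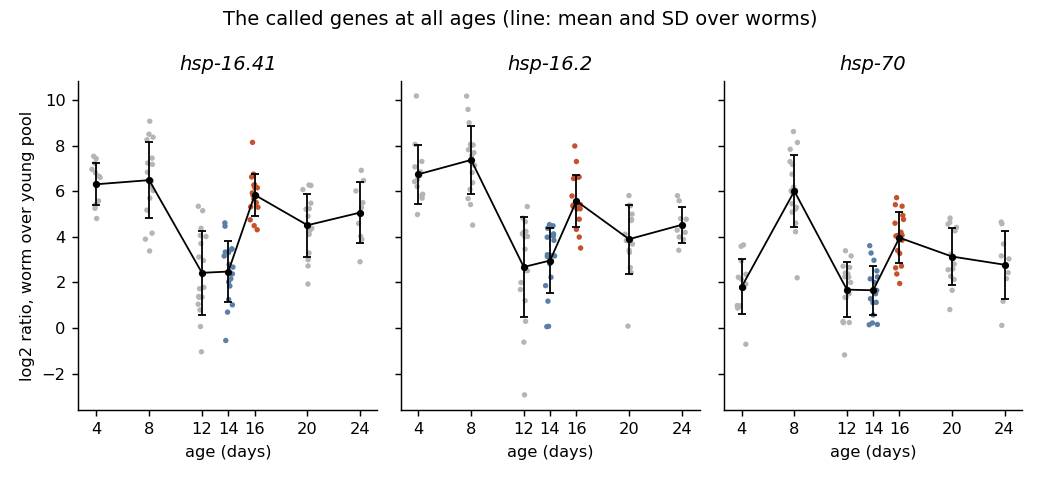
Log2 ratio of worm over young pool (y axis) against age in days (x axis) for the 3 called genes, with a point for each worm and lines for the mean and SD at each age. Day 14 (blue) and day 16 (red) are coloured; the mean of hsp-16.41 goes from 2.48 to 5.84 between them, and that of hsp-70 peaks at 6.01 at day 8.

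The other step between successive ages with a large rise of hsp-70 was that from day 4 to day 8, which shares no worm with days 14 and 16. There hsp-70 rose by 4.19 ± 0.46 (SE, limma adjusted p = 5.32e-12, n = 17 and 13), while 984 genes (5.21%) were called higher and 1160 (6.14%) lower. At that step hsp-16.41 differed by 0.18 and hsp-16.2 by 0.63 (limma adjusted p = 0.877 and 0.534), from means of 6.31 and 6.74 at day 4. Whether the level at day 4 bears on these differences was not tested. The difference between the steps, day 14 to 16 minus day 4 to 8, was 3.18 ± 0.69 for hsp-16.41 (SE, limma adjusted p = 0.00145). It was 1.98 for hsp-16.2, with a 95% interval of 0.50 to 3.47 (adjusted p = 0.134), and -1.88 for hsp-70, with an interval of -3.13 to -0.63 (adjusted p = 0.0797). In all 649 genes (3.44%) differed between the steps. Of the 21 heat shock genes plotted with their intervals, 4 did, all with the higher value at the later step: hsp-16.41, hsp-90, hsp-17 and hsp-1. The constitutive gene hsp-90 fell by 1.12 from day 4 to day 8 (limma adjusted p = 6.72e-05) and had 0.34 from day 14 to day 16, a difference between the steps of 1.46 ± 0.29 (SE, limma adjusted p = 0.000454). The constitutive HSP70 gene hsp-1 fell by 0.52 from day 4 to day 8 (limma adjusted p = 0.0174) and had 0.25 at the later step, a difference of 0.77 ± 0.21 (SE, limma adjusted p = 0.0242). The small heat shock protein gene hsp-17 had -0.73 and 1.14, neither past the threshold, and the steps differed by 1.87 ± 0.56 (SE, limma adjusted p = 0.0425).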

How the data were processed

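Each worm was measured on a 2-colour array against 1 pool. The deposited values are log2 ratios as read here, made by the authors with limma per the submitters' processing notes, which give no version; no source used here states the background correction, normalization, log base or direction. The array medians of the 34 worms lay between -0.0273 and 0.0036, and 0.539% of their values were missing. The number of arrays limits the precision, and spot intensities were not used here. The 2 deposited tables held equal values (largest difference 0), and 0 columns were left out.

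Probes were named through a RefSeq table (WBcel235, names and gene order only; 95.07% matched) and averaged per gene, 18889 in all; hsp-16.41, hsp-16.2 and hsp-70 had 1 probe each. A linear model with age as a factor was fitted to the arrays of all 7 ages together (limma 3.58.1, R 4.3.3), and contrasts were adjusted over all genes. The worms were individuals of 1 cohort, so p-values measure the spread between them. Of 689 genes in 29 lists, 601 were measured; 1 list is not reported here. Permutations used Python 3.11.15 with scipy 1.17.1 and numpy 2.4.6. The fit was run on simulated worms with independent noise and known large changes. That run did not cover smaller changes or arrays that stand apart.

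The comparison, lists and tests were chosen with earlier results of these data known. Named were all measured members of the heat shock lists, the largest called changes, the smallest p of other lists and the 5 genes most like hsp-70. Alternatives (samples in the fit, array weights, normalization, probes, missing values, empirical Bayes, each worm left out) were also run.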

Additional observations from a re-analysis of the deposited data

How the results depend on the processing

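The call of hsp-16.41, hsp-16.2 and hsp-70, and of no other gene, was computed with days 14 and 16 alone, with days 4, 8, 14 and 16, with array weights, with quantile normalization, with the median of probes, with each probe on its own, with genes complete on every array and with robust empirical Bayes. Each of these gave 3 genes higher and 0 lower, as did leaving out each worm (3 to 3 higher, 0 to 0 lower). For each probe on its own, only the number of genes was kept, not which genes they were. Without the 5 worms of low correlation, chosen after seeing the data, 1 gene was higher, and hsp-16.2 (2.39, adjusted p = 0.181) and hsp-70 (2.10, adjusted p = 0.137) lost their calls; fewer worms entered that fit and the cause was not tested. Over the 8 settings with 1 value per gene the differences lay between 3.28 and 3.83 for hsp-16.41, 2.39 and 2.72 for hsp-16.2 and 2.10 and 2.31 for hsp-70, and with 1 worm left out between 3.18 and 3.50, 2.43 and 2.74, and 2.20 and 2.43. Day 20 against day 16 gave 126 genes with array weights, against 48; the cause was not tested. Of the relations across worms, 2 passed by Pearson, 3 by Spearman and 0 without the 2 farthest worms. Differences near 0 changed sign: with 1 worm left out, F11F1.1 ranged from -0.32 to 0.0181, hsp-12.1 from -0.25 to 0.0198, hsp-12.6 from -0.0125 to 0.25 and hsp-43 from -0.0125 to 0.23, and without the 5 worms F11F1.1 had 0.0416, hsf-2 had 6e-04 and srh-113 had -0.0028. No paired analysis was possible because the replicate numbers only follow accession order and worms of different ages are different individuals.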
